A study of Mus musculus with 11 samples.

Results

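The prolactin family and the pregnancy-specific and carcinoembryonic glycoprotein families were followed in a map of the DNA that lies close to lamin B1, one of the filament proteins that line the inner nuclear membrane, in mouse cells of the oligodendrocyte lineage. Their members were taken by gene symbol, in a choice made with earlier results of these data known. They make up 54 of the 21534 gene regions measured. There were 26 prolactin family regions, all on chromosome 13, and 28 glycoprotein regions on chromosome 7, of which 13 were Psg and 15 Ceacam. The prolactin receptor and the prolactin-releasing hormone genes were left out, as were the pseudogenes Psg-ps1 and Ceacam-ps1.

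The map was made with DamID-seq, in which the bacterial enzyme Dam methylates adenine in the sequence GATC. Dam fused to lamin B1 (Dam-LMNB1) marks DNA close to the lamina, and untethered Dam marks DNA that any free enzyme can reach. All cells were wild-type (WT) cortical oligodendrocyte precursor cells of C57BL/6 mice at postnatal day 7, carried Dam-LMNB1 or Dam by lentivirus for 1 day, and were then kept in medium for 72 h. Cells in differentiation medium (T3) are called OL here, with 3 Dam-LMNB1 libraries (18, 19 and 20) and 3 Dam libraries (12, 13 and 14). Cells in proliferation medium (PF) are called OPC, with 3 Dam-LMNB1 libraries (8, 9 and 10) and 2 Dam libraries (2 and 4). Each deposited score sets 1 Dam-LMNB1 library against Dam pooled over the libraries of the same condition, so the 3 scores of a condition share 1 denominator. A score above 0 is read as more Dam-LMNB1 than Dam methylation. The log base of the scores and the read depth are unknown, so differences are given in score units. Whether libraries of a condition stem from different cultures or animals is not in the labels, so the p-values cover the variation among these 6 libraries alone, and it may be technical. A score averages over a culture, so that more cells in contact and closer contact per cell cannot be told apart. DamID scores are no measure of expression, and the labelled cell types could not be checked with marker genes.

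Prolactin is the pituitary hormone of lactation and signals through the prolactin receptor, the kinase JAK2 and the transcription factor STAT5, and in pregnant mice it is known to raise the division of oligodendrocyte precursors. In rodents the ancestral gene has expanded into a large cluster, most of whose members are secreted by trophoblast or by the maternal decidua during pregnancy. The pregnancy-specific glycoproteins (Psg) are secreted by trophoblast, and their nearest relatives, the carcinoembryonic antigen cell adhesion molecules (Ceacam), include both placental proteins and membrane proteins of epithelia and leukocytes. Tissue-restricted gene clusters in A+T-rich DNA are known to lie often in lamina-associated domains, where genes are mostly silent.

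The members include recent duplicates, and their promoters show how alike some are. Of the 54 members 45 had a promoter sequence in RefSeq (GRCm38.p6), of which the 250 bases before the start were used. The proliferin genes Prl2c3 (chr13:12800080-12800329, minus strand) and Prl2c5 (chr13:13182466-13182715, plus strand) shared 241 of 251 aligned positions, or 96.0%. The proliferin-related gene Prl7d1 (chr13:27716738-27716987, minus strand) shared 94.0% with Prl2c3, although it lies in another run of genes on the chromosome. These promoters are shown because the members with the highest scores are among such copies; capitals mark bases that differ from, or have no partner in, Prl2c3.
Prl2c3: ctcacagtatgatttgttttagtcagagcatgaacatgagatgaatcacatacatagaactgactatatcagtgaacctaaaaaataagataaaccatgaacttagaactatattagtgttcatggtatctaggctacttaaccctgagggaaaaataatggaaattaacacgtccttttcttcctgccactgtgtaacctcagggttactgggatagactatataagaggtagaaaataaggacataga
Prl2c5: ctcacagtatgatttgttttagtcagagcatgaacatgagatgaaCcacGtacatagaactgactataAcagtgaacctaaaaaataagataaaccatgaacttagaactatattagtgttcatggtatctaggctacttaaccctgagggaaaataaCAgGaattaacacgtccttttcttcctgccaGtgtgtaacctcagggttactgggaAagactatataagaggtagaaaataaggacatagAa
Prl7d1: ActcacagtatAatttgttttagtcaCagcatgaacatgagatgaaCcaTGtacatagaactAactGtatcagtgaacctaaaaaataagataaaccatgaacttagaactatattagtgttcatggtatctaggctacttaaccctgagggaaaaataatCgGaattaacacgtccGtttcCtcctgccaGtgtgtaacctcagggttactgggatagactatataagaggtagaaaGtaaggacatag

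On chromosome 7 the promoters of Psg23 (chr7:18616502-18616751, minus strand) and Psg21 (chr7:18656726-18656975, minus strand) shared 96.1% of aligned positions, and capitals in Psg21 mark bases without an equal partner in Psg23. The other pairs above 90% were Prl2c5 with Prl7d1 at 93.7%, Prl3d2 with Prl3d3 at 96.5% and Psg18 with Psg28 at 96.4%. The treatment of reads that fit more than 1 copy was not stated in the labels or file headers, so the scores of these near-identical copies, and of the proliferin genes above all, are uncertain.
Psg23: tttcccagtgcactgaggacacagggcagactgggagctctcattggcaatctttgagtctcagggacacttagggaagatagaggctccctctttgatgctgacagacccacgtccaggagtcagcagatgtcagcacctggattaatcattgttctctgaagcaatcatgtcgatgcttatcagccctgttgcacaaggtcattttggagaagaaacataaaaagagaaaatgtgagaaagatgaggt
Psg21: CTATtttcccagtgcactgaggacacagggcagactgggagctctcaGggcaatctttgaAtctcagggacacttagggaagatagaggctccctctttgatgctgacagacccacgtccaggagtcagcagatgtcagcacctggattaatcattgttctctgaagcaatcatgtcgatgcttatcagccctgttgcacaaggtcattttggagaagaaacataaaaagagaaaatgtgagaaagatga

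A further pair of promoters is shown for the motif of a pituitary factor and for the site that Dam methylates. The pituitary factor POU1F1 (Pit-1) is known to bind A+T-rich sites close to TATNCAT in the prolactin promoter. This motif was searched on both strands, and Prl held it at 148 and 47 bases before the start (chr13:27057320-27057569, plus strand; capitals mark the motif). Prl3d1, the gene of placental lactogen I, held no TATNCAT but 3 GATC sites (chr13:27093939-27094188, plus strand; capitals mark GATC).
Prl: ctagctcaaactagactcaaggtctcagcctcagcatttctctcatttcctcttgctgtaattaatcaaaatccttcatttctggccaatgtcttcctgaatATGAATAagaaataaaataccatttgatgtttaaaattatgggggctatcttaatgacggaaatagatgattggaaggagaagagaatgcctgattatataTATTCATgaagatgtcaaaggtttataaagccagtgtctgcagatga
Prl3d1: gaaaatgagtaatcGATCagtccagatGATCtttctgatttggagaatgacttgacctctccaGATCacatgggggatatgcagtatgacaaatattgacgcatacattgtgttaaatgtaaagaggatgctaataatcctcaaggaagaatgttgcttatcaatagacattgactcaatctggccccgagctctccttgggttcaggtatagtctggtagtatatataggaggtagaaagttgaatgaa

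TATNCAT stood in 6 of 22 chromosome 13 promoters (27.3%), in 2 of 23 chromosome 7 promoters (8.70%) and in 8.16% of the 27025 promoters of the table. GATC, which reads the same on both strands, stood in 8 of 22 chromosome 13 promoters (36.4%), in 5 of 23 chromosome 7 promoters (21.7%) and in 42.0% of all. These are matches of letters in 250 bases and not sites of binding or of methylation. TATNCAT is itself rich in A and T. The median A+T share was 61.6% in the chromosome 13 promoters, 51.2% in those of chromosome 7 and 48.0% in all. The part of base composition in the motif shares was not tested.

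All 26 prolactin family regions lay above 0 in both conditions. Their median score was 1.77 in OL and 1.79 in OPC, against −0.91 in OL and −1.01 in OPC over the other 872 regions of chromosome 13. The score of every member was above 0 in all 6 libraries. In limma's test of a condition's mean against 0, adjusted over all 21534 regions, 25.9% of all regions were called above 0 in OL and 25.5% in OPC (adjusted p under 0.05), against 26 of 26 here. The largest adjusted p in the family was that of Prl8a1, at 2.48e-06 in OL and 1.05e-07 in OPC. The members stood in 2 runs, with neighbouring starts under 1 Mb apart inside each, and neither run held a region of another gene.

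**Figure D1:**
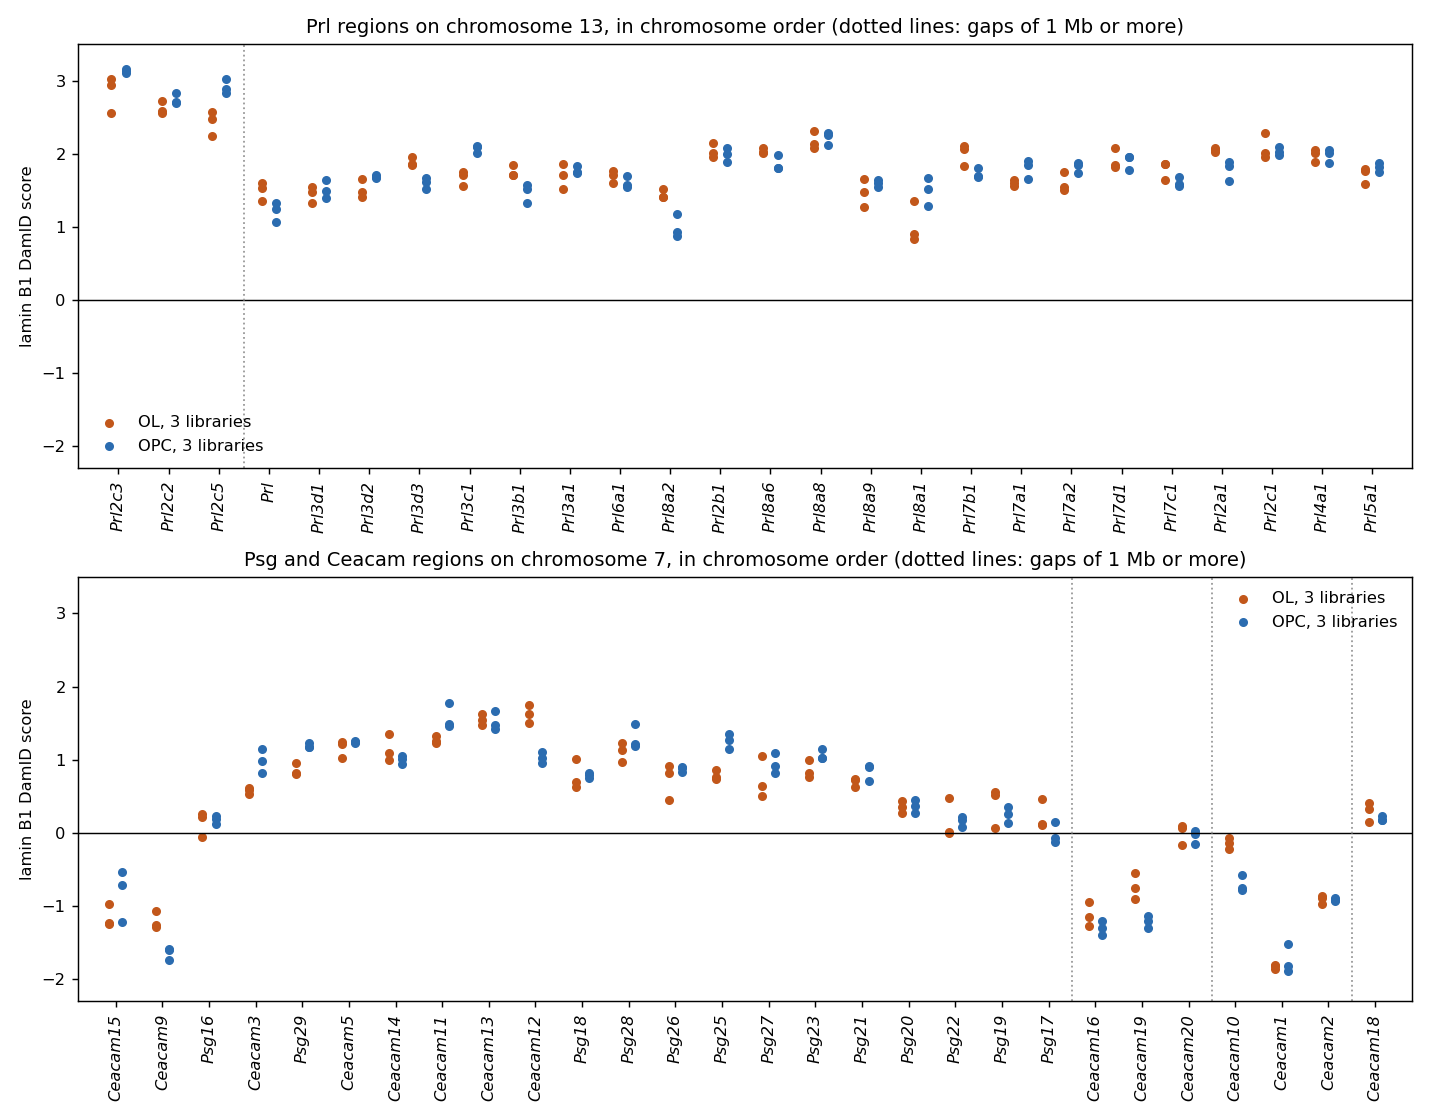
Score of each of the 54 members in each Dam-LMNB1 library, in order along chromosome 13 and chromosome 7; points are single libraries of OL and OPC, the horizontal line is a score of 0, and dotted lines mark gaps of 1 Mb or more. All 26 chromosome 13 members sit above 0 in every library, whereas chromosome 7 members lie on both sides of it.

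The 3 highest members formed the smaller run, which spans 405 kb (chr13:12788817-13193925, mm10) and holds the proliferin genes. Proliferin is a placental hormone known to act on growth of blood vessels. Prl2c3 (chr13:12788817-12810079) scored 2.56, 3.02 and 2.93 in OL libraries 18, 19 and 20, against 3.10, 3.16 and 3.13 in OPC libraries 8, 9 and 10. By mean score it had rank 52 of all 21534 regions in OL and rank 10 in OPC, counted from the top. Prl2c2 scored 2.56, 2.72 and 2.58 in OL, against 2.70, 2.71 and 2.83 in OPC. Prl2c5 scored 2.25, 2.58 and 2.47 in OL, against 2.82, 3.02 and 2.88 in OPC. OL libraries lay below all OPC libraries for Prl2c3 and Prl2c5 and overlapped them for Prl2c2. Libraries of the 2 conditions did not overlap in 48.9% of all regions. The difference of Prl2c3 did not pass the test (adjusted p = 0.0834, limma). The nearest regions outside the run were close to 0. Gpr137b-ps, 128 kb before it, averaged −0.11 in OL and 0.01 in OPC, and Gpr137b, 162 kb after it, averaged 0.08 in OL and 0.07 in OPC, and neither was called on either side of 0. Further after the run Nid1, which encodes the basement membrane protein nidogen-1, averaged 0.62 in OL and 0.60 in OPC. Lyst, a lysosomal trafficking gene, averaged 1.2 in OL and 1.15 in OPC. Further before the run Lgals8 and Heatr1 averaged −1.51 and −0.90 in OL against −1.32 and −0.95 in OPC. Of the 5 nearest regions before the run, 1 was called above 0 and 2 below in each condition. Of the 5 after it, 4 were called above 0 and 0 below in each condition.

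The larger run spans 1106 kb (chr13:27047569-28153595) and holds 23 members, from Prl itself to Prl5a1. Their median was 1.71 in OL and 1.77 in OPC. The SD over these members, 0.28 in each condition, was larger than the median SD between the 3 libraries of a member, which was 0.12 in OL and 0.09 in OPC. Prl (chr13:27047569-27067203) stood at the low end, with 1.52, 1.60 and 1.36 in OL against 1.07, 1.33 and 1.24 in OPC. The hormone gene of the pituitary and its placental relatives had scores on the same side of 0.

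The placental lactogen genes follow Prl at the start of the run. Prl3d1 scored 1.32, 1.55 and 1.47 in OL, against 1.39, 1.64 and 1.49 in OPC, with overlapping libraries. Its copies of the same subfamily were Prl3d2, with 1.41, 1.65 and 1.48 in OL against 1.69, 1.67 and 1.71 in OPC, and Prl3d3, with 1.85, 1.95 and 1.86 in OL against 1.52, 1.61 and 1.67 in OPC. OL minus OPC was −0.17 for Prl3d2 (adjusted p = 0.114, limma) and 0.28 for Prl3d3 (adjusted p = 0.0163), whose promoters are near-copies. Prl3b1, the gene of placental lactogen II, scored 1.71, 1.84 and 1.71 in OL, against 1.51, 1.57 and 1.33 in OPC. Prl3a1, whose region overlaps that of Prl3b1, averaged 1.70 ± 0.17 in OL and 1.77 ± 0.05 in OPC (SD, n = 3 each).

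Prl8a2, the gene of decidual prolactin-related protein, had the lowest OPC score of the family. It scored 1.51, 1.41 and 1.40 in OL, against 1.17, 0.88 and 0.93 in OPC, and the libraries did not overlap. Prl3c1, the gene of prolactin-like protein J, was lower in every OL library than in any OPC library, with 1.71, 1.55 and 1.76 in OL against 2.09, 2.10 and 2.0 in OPC. Prl8a1 had the lowest OL score of the family and the widest spread of the run, with 0.83, 1.36 and 0.91 in OL against 1.52, 1.28 and 1.67 in OPC. Its region overlaps that of Prl8a9, which averaged 1.47 ± 0.19 in OL and 1.60 ± 0.05 in OPC.

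By the mean over the 6 libraries, the highest scores of the larger run belonged to Prl8a8, with 2.32, 2.08 and 2.13 in OL against 2.25, 2.29 and 2.12 in OPC. Prl2c1 followed, with 1.95, 2.28 and 2.01 in OL against 2.02, 2.09 and 1.98 in OPC, and then Prl2b1, with 2.14, 2.0 and 1.95 in OL against 2.08, 1.99 and 1.89 in OPC. For each of them the libraries of OL and OPC overlapped. Prl4a1, the gene of prolactin-like protein A, was nearly equal in both, with 2.0, 2.04 and 1.88 in OL against 2.01, 2.05 and 1.87 in OPC. Prl7d1, the proliferin-related gene shown above, averaged 1.91 ± 0.15 in OL and 1.89 ± 0.10 in OPC, well under the proliferin genes whose promoters it resembles. The other 8 members of the run (Prl6a1, Prl8a6, Prl7a1, Prl7a2, Prl7b1, Prl7c1, Prl2a1 and Prl5a1) had means of 1.60 to 2.05 in OL and 1.60 to 1.87 in OPC.

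The regions around the larger run changed side within a few genes. Before it, Hdgfl1, at a distance of 267 kb, averaged 1.11 in OL and 0.94 in OPC, and Nrsn1 1.09 in OL and 1.14 in OPC. Mrs2 and Gpld1, farther out, were below 0, with −1.16 and −1.83 in OL against −1.23 and −1.42 in OPC. After it, Mir6368, at 555 kb, averaged −0.49 in OL and −0.84 in OPC, and the transcription factor gene Sox4 −1.33 in OL and −1.43 in OPC. The cell cycle factor gene E2f3, at 1751 kb, was above 0 in OL at 0.32 and below 0 in OPC at −0.24.

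Over both chromosomes 44 members were above 0 in all 6 libraries, as were 24.8% of all regions, and 7 were below 0 in all 6, as were 70.0% of all regions. The other 3 (Psg16, Psg17 and Ceacam20) had libraries on both sides.

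Chromosome 7 held a mixed family. Of its 28 members, 18 lay above 0, 7 below and 3 were uncalled in OL, and the counts were the same in OPC, against a background of 25.9% called above and 70.9% called below in OL, and 25.5% above and 71.4% below in OPC. The median was 0.48 in OL and 0.57 in OPC, against −1.34 in OL and −1.42 in OPC over the other 1966 regions of the chromosome. Scores ran from −1.83 to 1.62 in OL and from −1.74 to 1.57 in OPC. The sign went with position: 17 of the 18 members called above 0 in each condition lay in 1 run of 2162 kb (chr7:16669330-18831591), and 5 of the 7 called below 0 lay outside it. Of the 19 other regions inside this run, 4 were called above 0 and 15 below in each condition. Those above 0 were Psg-ps1, Igfl3, Mill1 and Sycp1-ps1, at 0.98, 1.25, 0.66 and 0.28 in OL against 1.15, 1.15, 0.62 and 0.27 in OPC. The 5 nearest regions on each side of the run were all called below 0 in both conditions.

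**Figure D2:**
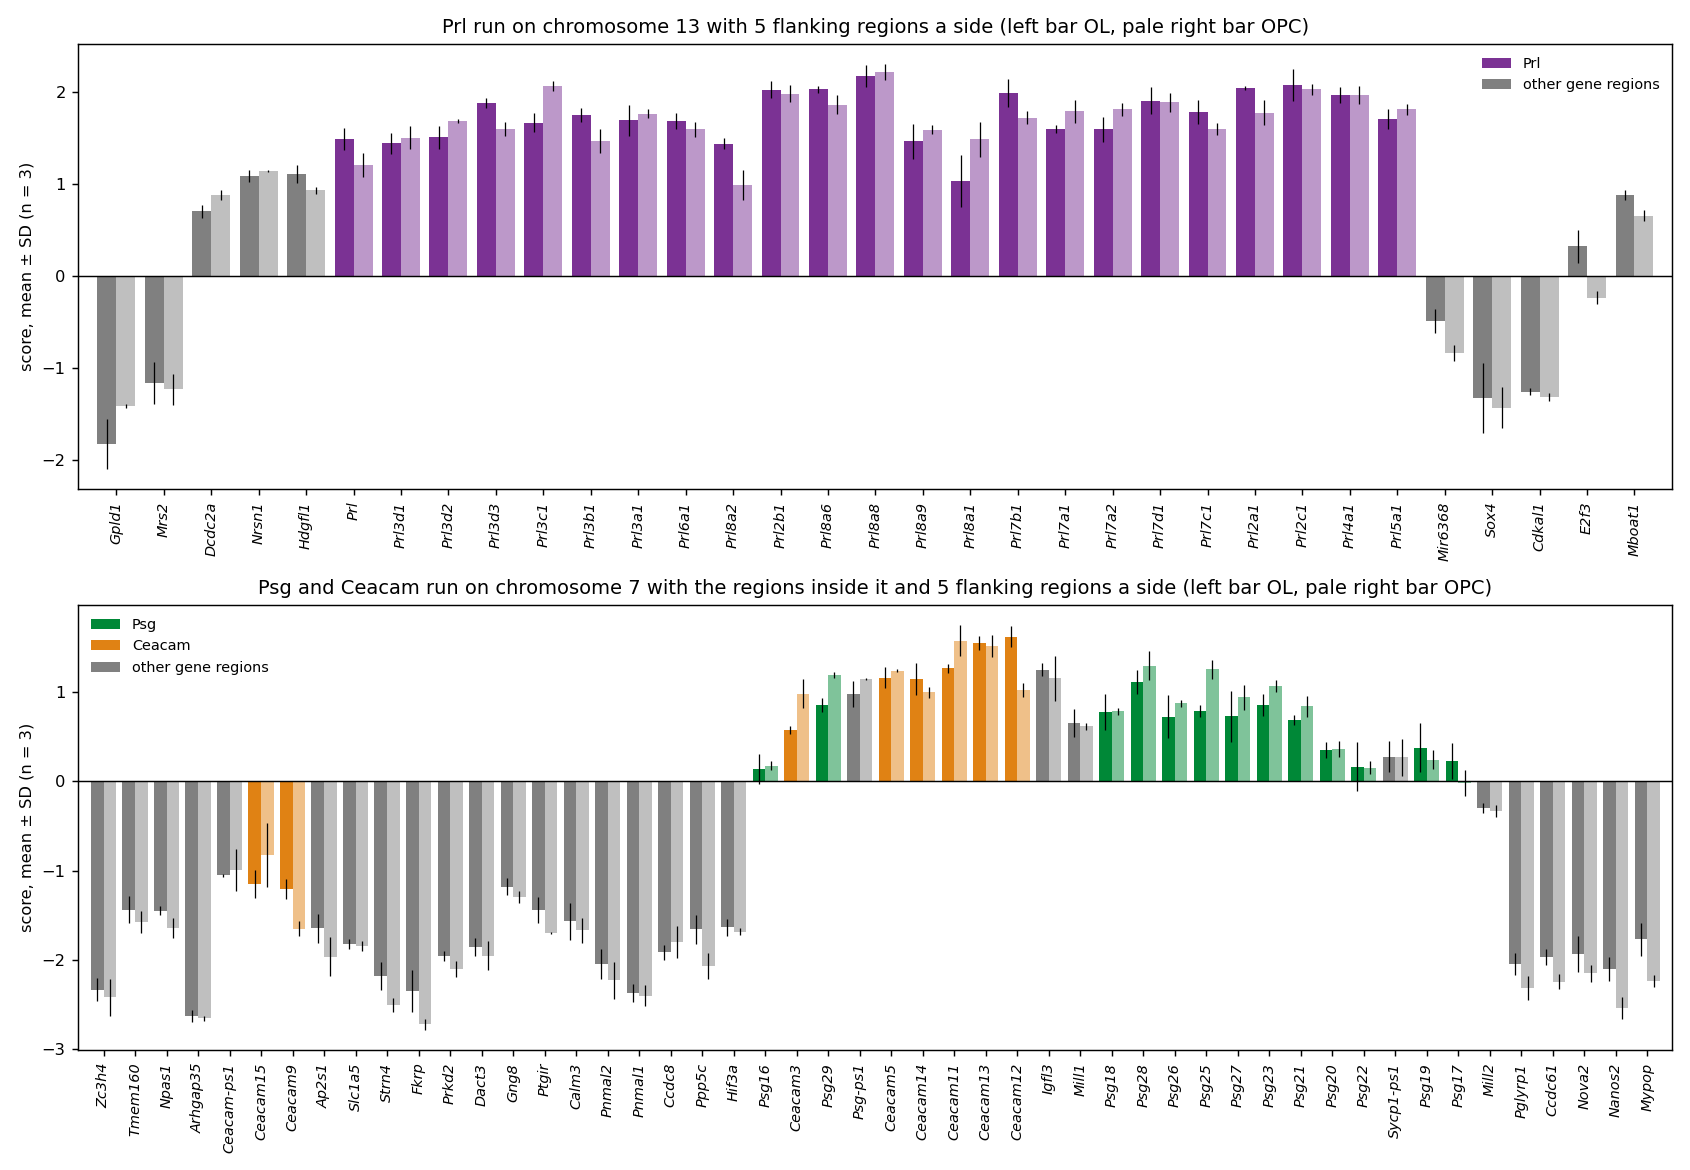
Mean score in OL (left bars) and in OPC (pale right bars) of the members of the largest run on each chromosome and of the other regions inside it and beside it, in their order along the chromosome, with the SD of 3 libraries. The chromosome 13 run holds no other gene region, whereas the start of the chromosome 7 run is broken by 14 regions from Ap2s1 to Hif3a, all below 0. Psg-ps1, Igfl3, Mill1 and Sycp1-ps1, farther along the chromosome 7 run, are above 0.

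The pregnancy-specific glycoproteins were above 0 in 11 of 13 regions in OL and in 11 of 13 in OPC, and none was called below 0. Their median was 0.73 in OL and 0.84 in OPC. The highest was Psg28, with 1.23, 0.97 and 1.13 in OL against 1.22, 1.49 and 1.188 in OPC. Psg29 scored 0.80, 0.95 and 0.81 in OL, against 1.17, 1.17 and 1.23 in OPC, and Psg25 0.73, 0.77 and 0.86 in OL, against 1.27, 1.35 and 1.14 in OPC. Both were lower in every OL library than in any OPC library.

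Psg18 scored 1.01, 0.63 and 0.70 in OL, against 0.75, 0.78 and 0.82 in OPC. Psg23, a glycoprotein gene of the placenta, scored 0.81, 0.99 and 0.77 in OL, against 1.03, 1.15 and 1.03 in OPC. Its neighbour Psg21, with a near-identical promoter, scored 0.63, 0.73 and 0.72 in OL, against 0.70, 0.91 and 0.91 in OPC. As means, Psg23 and Psg21 stood at 0.86 and 0.69 in OL against 1.07 and 0.84 in OPC. The other Psg pair with near-identical promoters, Psg18 and Psg28, stood at 0.78 and 1.11 in OL against 0.78 and 1.30 in OPC. Psg26, Psg27 and Psg20 averaged 0.73, 0.73 and 0.35 in OL against 0.87, 0.94 and 0.36 in OPC.

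Towards the far end of the run the scores approached 0. Psg19 scored 0.56, 0.51 and 0.07 in OL, against 0.35, 0.25 and 0.13 in OPC. Its call above 0 in OPC ended without library 8 (adjusted p = 0.124) or 9 (adjusted p = 0.0704). With an ordinary test per region, which shares no spread between regions, its calls ended in OL (adjusted p = 0.143) and in OPC (adjusted p = 0.0633). Psg22 scored 0.48, 0.00 and 0.01 in OL, against 0.07, 0.21 and 0.18 in OPC, and was called in neither condition. It was called above 0 in OL without OL library 19 (adjusted p = 0.0402) or 20 (adjusted p = 0.0472), and in OPC without OL library 18 (adjusted p = 0.00744), with quantile normalization (adjusted p = 0.0495) or with the OPC libraries alone in the fit (adjusted p = 0.0138). Psg17, whose product is known to bind the tetraspanin CD9, scored 0.47, 0.11 and 0.12 in OL, against −0.08, −0.13 and 0.14 in OPC, and was called above 0 in OL alone (adjusted p = 0.0171, against 0.794 in OPC, limma). Its difference between the conditions did not pass the test (adjusted p = 0.108). The region of Psg17 overlaps that of Mill2, which was called below 0 at −0.30 in OL and −0.33 in OPC. The region of Psg19 overlaps that of Sycp1-ps1, at 0.28 in OL and 0.27 in OPC. Without OL library 18 the call of Psg17 in OL ended (0.11, adjusted p = 0.148). In Psg17, Psg19 and Psg22 OL library 18 had the highest of the 3 OL scores.

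At the near end stood Psg16, the widest region of the family (71.4 kb), with −0.05, 0.21 and 0.26 in OL against 0.13, 0.23 and 0.18 in OPC. It was called above 0 in OPC alone (adjusted p = 0.0214, against 0.0544 in OL), and its difference did not pass the test (adjusted p = 0.778). Without OL library 18 it was called above 0 in OL (adjusted p = 0.00162), and without OPC library 9 or 10 the call in OPC ended (adjusted p = 0.103 and 0.0709). Its region overlaps that of Hif3a, a hypoxia-inducible factor gene at −1.63 in OL and −1.68 in OPC.

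The Ceacam regions split, with 7 above 0, 7 below and 1 uncalled in each condition. Of those above 0, 6 lay among or beside the Psg genes, and several of these are known in the mouse from the placenta. Ceacam13 scored 1.55, 1.47 and 1.63 in OL, against 1.42, 1.66 and 1.48 in OPC. Ceacam12 had 1.62, 1.5 and 1.74 in OL, against 1.11, 0.95 and 1.02 in OPC. Ceacam11 scored 1.23, 1.25 and 1.33 in OL, against 1.46, 1.49 and 1.77 in OPC. These 3 lie next to each other, and the libraries overlapped for Ceacam13, stood higher in OL for Ceacam12 and stood lower in OL for Ceacam11. Ceacam5 and Ceacam14 averaged 1.16 and 1.14 in OL against 1.24 and 1.00 in OPC, and Ceacam3 scored 0.53, 0.58 and 0.62 in OL, against 0.82, 1.15 and 0.99 in OPC.

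The Ceacam regions with low scores stood among other low genes. Ceacam15 scored −0.97, −1.23 and −1.25 in OL, against −0.71, −1.22 and −0.54 in OPC, and Ceacam9, −1.07, −1.28 and −1.26 in OL, against −1.61, −1.74 and −1.59 in OPC. Both lie at the start of the run, just before the 14 regions from Ap2s1 to Hif3a. Ceacam1, which encodes an adhesion and inhibitory receptor of epithelia and leukocytes, was the lowest member, with −1.87, −1.80 and −1.81 in OL against −1.82, −1.52 and −1.89 in OPC. Ceacam2, its close relative, scored −0.97, −0.89 and −0.86 in OL, against −0.93, −0.89 and −0.92 in OPC.

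Ceacam10, known as a seminal vesicle protein gene in the mouse, lies in the same run as Ceacam1 and Ceacam2, with 26 other regions that were all called below 0 in both conditions. It scored −0.06, −0.22 and −0.14 in OL, against −0.78, −0.58 and −0.75 in OPC. The call of Ceacam10 below 0 in OL (adjusted p = 0.0374) ended without OL library 19 (−0.10, adjusted p = 0.191) or 20 (adjusted p = 0.104). Its region overlaps that of Cd177, which averaged −0.41 in OL and −0.87 in OPC, so that both regions were higher in OL (adjusted p for Cd177 = 0.0309, limma). Ceacam16, the gene of a tectorial membrane protein of the inner ear, scored −0.95, −1.15 and −1.27 in OL, against −1.39, −1.20 and −1.30 in OPC, and Ceacam19, −0.76, −0.55 and −0.91 in OL, against −1.13, −1.31 and −1.20 in OPC.

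Ceacam20, which encodes a protein of the intestinal brush border, stood at the edge between low and high regions. It scored −0.16, 0.10 and 0.06 in OL, against 0.02, −0.02 and −0.16 in OPC, and was called in neither. Pvr and Igsf23 before it averaged −1.21 and −1.13 in OL against −1.48 and −1.44 in OPC, while Nlrp9b, 4.91 kb after it, averaged 1.05 in OL and 1.14 in OPC, and was followed by 4 vomeronasal receptor genes that were called above 0 in both conditions. Ceacam18, alone at chr7:43624738-43651294, scored 0.41, 0.15 and 0.33 in OL, against 0.23, 0.18 and 0.18 in OPC, and its overlapping neighbour Siglece averaged −0.18 in OL and −0.52 in OPC.

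The chromosome 13 family scored higher than the chromosome 7 family in all 6 libraries. The median of the 26 chromosome 13 members was 1.71, 1.85 and 1.8 in OL libraries 18, 19 and 20, against 0.50, 0.55 and 0.43 for the 28 chromosome 7 members in the same libraries. In OPC libraries 8, 9 and 10 it was 1.76, 1.81 and 1.79 on chromosome 13, against 0.53, 0.57 and 0.64 on chromosome 7. The difference averaged 1.29 ± 0.08 in OL and 1.21 ± 0.05 in OPC (SD, n = 3 each). No p is given, because the members were taken as families and not drawn as a sample. With the largest run of each chromosome alone the difference was 1.06 in OL and 0.81 in OPC, and with Psg alone in place of all chromosome 7 members it was 1.1 in OL and 0.99 in OPC. The families overlapped in part, since 15 to 24 of the 26 chromosome 13 members lay above every chromosome 7 member in the 3 OL libraries and 13 to 23 in the 3 OPC libraries.

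**Figure D3:**
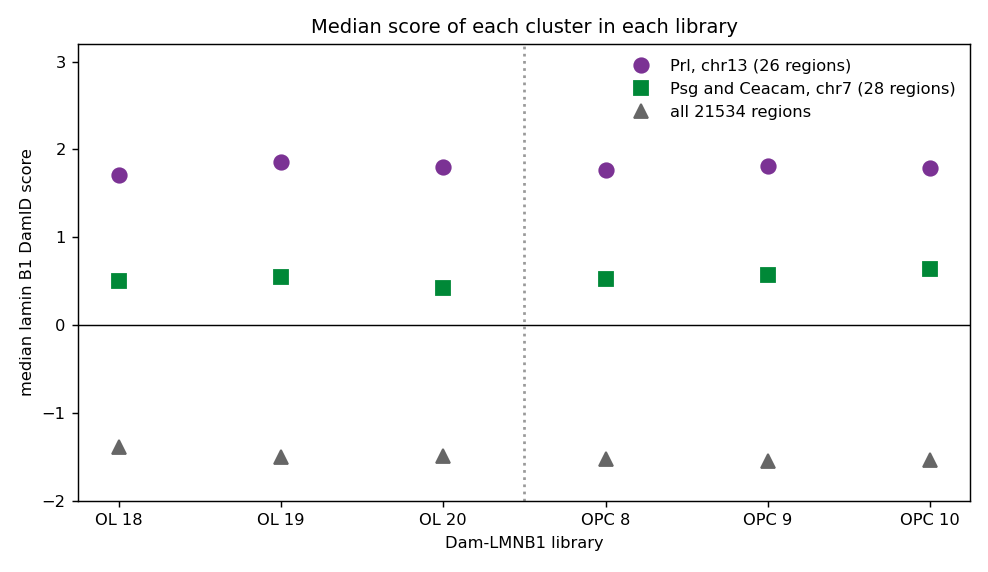
Median score of the 26 chromosome 13 members and the 28 chromosome 7 members in each of the 6 Dam-LMNB1 libraries, beside the median of all regions. The chromosome 13 medians, from 1.71 to 1.85, lie above all chromosome 7 medians, from 0.43 to 0.64, and all regions lie between −1.55 and −1.38.

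Within the runs, neighbours were more alike than members in general on chromosome 7. The median absolute difference between neighbours in the larger chromosome 7 run was 0.20 in OL and 0.29 in OPC, against 0.55 in OL and 0.64 in OPC over all pairs of the run. On chromosome 13 it was 0.18 in OL and 0.21 in OPC, against 0.28 in OL and 0.26 in OPC over all pairs. Regions that overlap share reads, which touches 2 neighbour pairs of chromosome 13. The sign of the OL minus OPC difference changed between neighbours in 11 of 22 pairs on chromosome 13 and in 7 of 20 on chromosome 7.

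**Figure D4:**
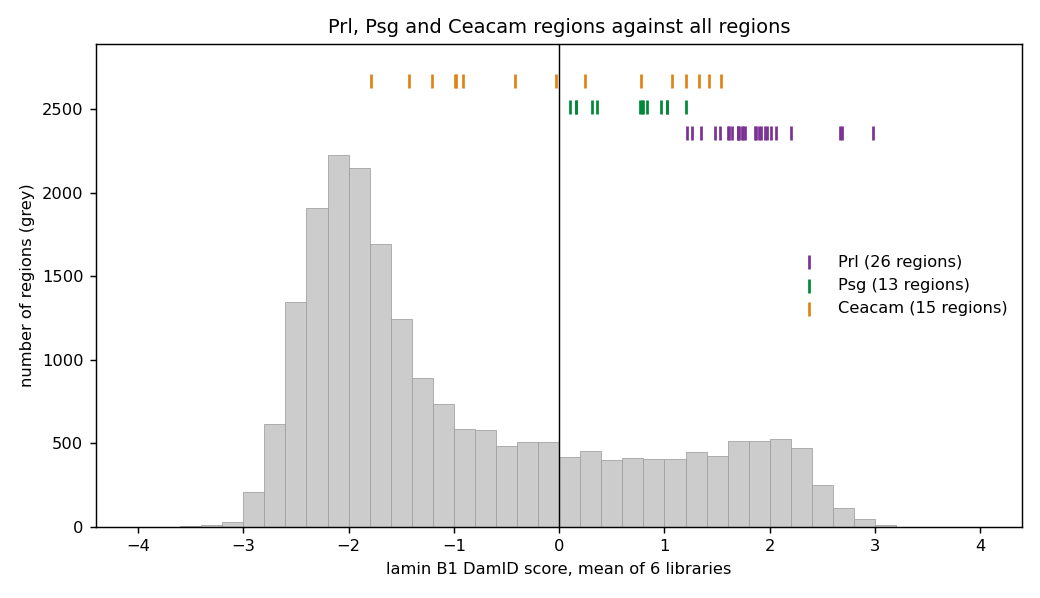
Histogram of the mean score over the 6 libraries for all 21534 regions (grey bars, number of regions), with a tick above it for each Prl, Psg and Ceacam member at its own mean. Prl ticks run from 1.22 to 2.98 and Psg ticks from 0.10 to 1.2, all above 0, while Ceacam ticks run from −1.79 to 1.53.

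Base composition differed in the same direction. The median A+T share of the 250 promoter bases was 61.6% for 22 chromosome 13 members, 51.2% for 23 chromosome 7 members and 48.0% for all promoters. Over the 45 members with a promoter, Pearson's r between A+T share and mean score was 0.76 and Spearman's rho 0.78. Within a chromosome r was 0.25 and rho 0.13 on chromosome 13 (n = 22), and r was 0.49 and rho 0.49 on chromosome 7 (n = 23). The members of a family share ancestry and a position, so these points are not independent and no p is given. The part of base composition in the scores was not tested.

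Between the conditions, members moved in both directions, and most did not pass the test. Of the 54 members 10 were higher in OL and 7 lower at an adjusted p under 0.05 (limma, Benjamini-Hochberg over 21534 regions), against a background of 23.0% higher and 10.9% lower, or 33.9% in either direction. The members' shares are close to that background. Of all regions called, 67.9% were higher in OL, and 50.5% when the libraries were set to the same mean and SD or quantile normalized. The median difference was −0.01 over members and 0.10 over all regions. Libraries of OL and OPC did not overlap in 21 members (38.9%), against 48.9% of all regions. None of the members passed an adjusted p of 0.05 in the authors' deposited table, where the lowest was 0.0601, for Ceacam10, and 676 regions did. An ordinary test per region, which shares no spread between regions, ended 10 of the 17 calls: Prl8a2, Prl2c5, Ceacam3, Ceacam19, Prl2a1 and Prl3b1 (adjusted p from 0.0516 to 0.0941), and Ceacam11, Prl7b1, Prl and Prl8a1 (adjusted p from 0.118 to 0.179). Without the variance trend in limma the calls of Prl (adjusted p = 0.0516) and Prl7b1 (adjusted p = 0.0513) ended.

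**Figure D5:**
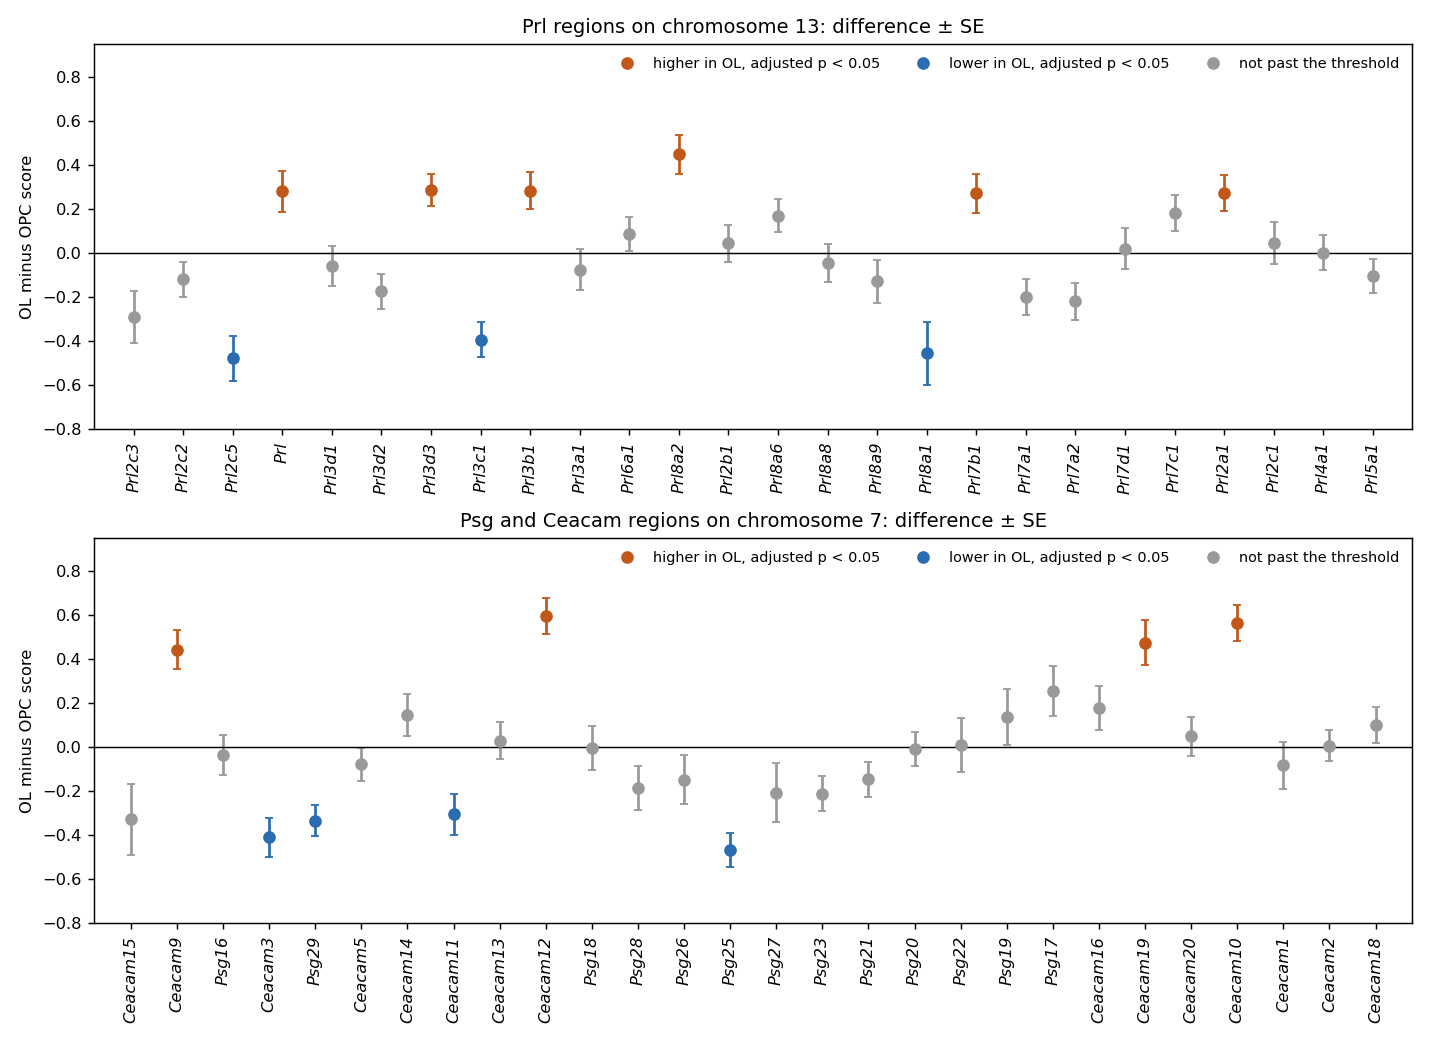
OL minus OPC difference in mean score of each member, in order along chromosomes 13 and 7, with bars for the standard error of the limma fit and colours for the limma call at an adjusted p under 0.05. Members higher in OL (10) and lower in OL (7) are interleaved along both chromosomes.

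On chromosome 13, 6 members were higher in OL and 3 lower. The largest increase was that of Prl8a2, by 0.45 (SE 0.09, adjusted p = 0.00587, limma). Prl3d3 was higher by 0.28 (SE 0.07, adjusted p = 0.0163). Prl3b1, Prl2a1, Prl7b1 and Prl were higher by 0.27 to 0.28, with adjusted p from 0.0288 to 0.0426. Prl2a1 had 2.07, 2.06 and 2.03 in OL, against 1.63, 1.83 and 1.88 in OPC, and Prl7b1 1.83, 2.11 and 2.06 in OL, against 1.81, 1.69 and 1.69 in OPC. The decreases were of Prl2c5, with −0.48 (SE 0.10, adjusted p = 0.00756), Prl3c1, with −0.39 (SE 0.08, adjusted p = 0.00601), and Prl8a1, with −0.46 (SE 0.14, adjusted p = 0.0357). Prl8a1 is the 1 called member whose libraries overlap, and its call ended when the libraries were set to the same mean and SD (adjusted p = 0.0557) or quantile normalized (adjusted p = 0.0547). Without OPC library 8 the calls of Prl, Prl3d3, Prl3b1, Prl8a1, Prl7b1 and Prl2a1 ended, with Prl3d3 at an adjusted p of 0.059. The calls of the other 5 ended also without other single libraries, which were OPC 10, OL 18 and OL 19 for Prl (adjusted p up to 0.134), OPC 10, OL 19 and OL 20 for Prl3b1 (up to 0.104), OPC 10, OL 18 and OL 20 for Prl8a1 (up to 0.117), OPC 9, OPC 10, OL 19 and OL 20 for Prl7b1 (up to 0.123), and OPC 9, OL 18, OL 19 and OL 20 for Prl2a1 (up to 0.101).

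On chromosome 7, 4 members were higher in OL and 4 lower. Ceacam12 had the largest change of all members, with 0.59 (SE 0.08, adjusted p = 0.00131, limma), followed by Ceacam10 with 0.56 (SE 0.08, adjusted p = 0.00153). Ceacam19 and Ceacam9 were higher by 0.47 (SE 0.10, adjusted p = 0.0082) and 0.44 (SE 0.09, adjusted p = 0.00655). Of these 4, Ceacam12 lay above 0 in both conditions and the other 3 below 0 in both. Regions of other genes near some of them were also higher in OL. The next region after Ceacam12, Igfl3, did not pass the test (adjusted p = 0.535, limma). Neither did Ap2s1, the next region after Ceacam9 (adjusted p = 0.0797). Inside the Ceacam10 run the largest increases of other genes were those of Dmrtc2, by 0.65 (adjusted p = 0.00129, limma), and Lypd4, by 0.62 (adjusted p = 0.00168). The regions of Dmrtc2 and Lypd4 overlap. Others there did not pass the test, such as Rps19 (adjusted p = 0.111). In the run of Ceacam19, Igsf23 was higher by 0.31 (adjusted p = 0.0219), while Pvr did not pass (adjusted p = 0.223). The members lower in OL were Psg25 with −0.47 (SE 0.08, adjusted p = 0.00264), Ceacam3 with −0.41 (SE 0.09, adjusted p = 0.00856), Psg29 with −0.33 (SE 0.07, adjusted p = 0.00722) and Ceacam11 with −0.31 (SE 0.09, adjusted p = 0.0307). All 4 had scores above 0 in both conditions. The call of Ceacam11 ended without OPC library 10 or any 1 OL library (adjusted p up to 0.0945). Among the Psg regions, 2 of 13 were lower in OL and none higher at the threshold, and the difference was negative in 10 of 13. Of all regions 10.9% were lower and 23.0% higher at the threshold, and the difference was negative in 7806 of 21534.

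Genes with other parts in pregnancy gave a comparison by position. The 11 placental cathepsin and trophoblast protein genes of chromosome 13, from Ctsll3 (chr13:60796249-60812844) to Cts3 (chr13:61562629-61580127), were all above 0 in both conditions, with a median of 1.53 in OL and 1.74 in OPC, against −1.47 in OL and −1.54 in OPC over all regions. They lie in another cluster than the prolactin family, and 3 of 11 (Tpbpb, Ctsq and Cts7) were lower in OL, against 10.9% of all regions. Cts6 was highest, with 2.29, 2.03 and 2.19 in OL against 2.43, 2.32 and 2.21 in OPC. Of 25 regions of trophoblast regulators and placental genes elsewhere, 3 were above 0 and 17 below in OL, and 1 above and 18 below in OPC, with a median of −1.14 in OL and −1.22 in OPC. Of all regions 25.9% were above 0 and 70.9% below in OL, and 25.5% above and 71.4% below in OPC. Between the conditions 5 of the 25 were higher in OL and 4 lower, against 23.0% and 10.9% of all regions. The steroid dehydrogenase gene Hsd3b6, above 0 in both, averaged 1.56 in OL and 1.72 in OPC, while the trophoblast factor genes Hand1 and Gcm1 averaged −1.14 and −1.09 in OL against −1.26 and −0.72 in OPC.

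Genes of the prolactin axis lay on both sides of 0, receptor genes included. The receptor gene Prlr averaged 1.84 ± 0.03 in OL and 1.65 ± 0.07 in OPC, and the pituitary factor gene Pou1f1 2.16 ± 0.11 in OL and 2.22 ± 0.04 in OPC (SD, n = 3 each). The signalling genes Jak2 and Stat5a were at −2.23 and −1.97 in OL against −2.26 and −2.06 in OPC. The receptor genes Drd2, of dopamine, and Ghrhr, of growth hormone-releasing hormone, were also below 0, at −1.70 and −1.99 in OL against −1.51 and −2.20 in OPC. Of the list 15 of 20 regions were below 0 in each condition, against 70.9% of all regions in OL and 71.4% in OPC. Its median was −1.71 in OL and −1.81 in OPC, against −1.47 in OL and −1.54 in OPC over all regions. Trhr, the receptor of thyrotropin-releasing hormone, scored 1.63, 1.59 and 1.65 in OL against 1.24, 1.08 and 1.21 in OPC, and was higher in OL by 0.45 (SE 0.07, adjusted p = 0.00216, limma). Of the whole list 2 regions (Trhr and Prlh) were higher in OL and 2 (Stat5b and Prlhr) lower, against 23.0% and 10.9% of all regions.

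Milk protein genes, which prolactin is known to raise in the mammary gland, included the casein cluster on chromosome 5. Csn1s1 averaged 2.92 ± 0.13 in OL and 2.64 ± 0.03 in OPC, and Csn2, 2.40 ± 0.20 in OL and 2.65 ± 0.06 in OPC. Of 8 milk genes 5 were above 0 in both conditions, all of them caseins. Of all regions 25.9% were above 0 in OL and 25.5% in OPC. Wap, Lalba and Btn1a1 were below 0 at −0.93, −1.15 and −2.15 in OL against −1.45, −0.64 and −2.28 in OPC. The median of the 8 was 2.16 in OL and 2.39 in OPC. Between the conditions 2 (Csn1s1 and Wap) were higher in OL and 2 (Csn3 and Lalba) lower, against 23.0% and 10.9% of all regions. Partners of the glycoproteins, such as the tetraspanin gene Cd9 and integrin genes, lay below 0 in 14 of 16 regions in each condition, with a median of −1.59 in OL and −1.78 in OPC, against 70.9% of all regions in OL and 71.4% in OPC and their medians of −1.47 in OL and −1.54 in OPC. Of these 16, 1 (Ptpn6) was higher in OL and 3 (Itgb3, Itga5 and Ctnnb1) lower, against 23.0% and 10.9% of all regions. Itgb3, the integrin beta 3 gene, fell to −1.17, −1.31 and −1.31 in OL, against −0.15, −0.34 and −0.34 in OPC, a difference of −0.99 (SE 0.08, adjusted p = 0.000184, limma).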

How the data were processed

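Lamin B1 DamID-seq was done on mouse cortical oligodendrocyte precursor cells in 11 libraries, per the labels. The submitters' processing notes name cutadapt 1.9.1, BWA 0.7.17 and mm10. The authors deposited a table of 21534 regions with a score per Dam-LMNB1 library, which per the file headers is set against pooled Dam of the same condition. The step from reads to scores was not stated in the labels or file headers. The deposited table also holds p-values and adjusted p-values of the authors. Dam libraries on their own are not analysed here. A region is a gene with flanks: its upstream edge lay within 100 bp of 10000 bp before the annotated start in 50 of 54 members, and its downstream edge within 100 bp of 2000 bp after the end in 48, so exons, introns and UTRs share 1 score. All 54 members matched a protein-coding RefSeq gene by symbol.

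The scores already lay around 0 and were used as deposited, with no further logarithm or filter. All regions and 6 libraries entered 1 fit in limma 3.58.1 under R 4.3.3, with a mean for each condition, its variance trend and 9.42 degrees of freedom in total; the code was tested on simulated data. Two-sided tests compared each mean with 0 and OL with OPC, and p-values were adjusted by Benjamini-Hochberg over 21534 regions at 0.05. The shared Dam denominator keeps the variation between Dam libraries out of every p-value. Promoter pairs were aligned with Biopython 1.88. Named members were the 3 highest and lowest of each run, the largest changes, members with both signs, members outside the runs and a set of known genes; all others are given with their values or range. The 5 gene lists and the members were chosen with earlier results of these data known. The alternatives were 2 scalings, no variance trend, an ordinary test per region, fewer regions, the condition alone in the fit, and leaving out each library.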

Additional observations from a re-analysis of the deposited data

How the results depend on the processing

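No paired analysis was possible because the OL and OPC libraries share no replicate numbers. With an ordinary test per region, which shares no spread between regions, 4 members were higher and 3 lower in OL, against 10 and 7 in the limma fit; of all regions it called 12.6% higher and 6.20% lower, against 23.0% and 10.9%. Leaving out 1 library gave 5 to 9 members higher and 5 to 11 lower, beside 14.6% to 19.2% of all regions higher and 7.77% to 11.9% lower. Of the 17 called members, 10 passed without any 1 library. The difference between the chromosome 13 and chromosome 7 medians, 1.29 in OL and 1.21 in OPC, was 1.55 in OL and 1.56 in OPC with means in place of medians, 1.06 in OL and 0.81 in OPC for the largest runs alone, 1.1 in OL and 0.99 in OPC with Psg alone on chromosome 7, and 1.12 in OPC without the Prl2c regions. The causes of these shifts were not tested. Counts of members above 0 ranged from 40 to 45 in OL and from 42 to 45 in OPC, and counts below 0 from 6 to 7 in each. The ordinary test per region ended the calls above 0 of Psg17, Psg19, Psg27 and Ceacam18 and the call below 0 of Ceacam10 in OL. In OPC it ended the call above 0 of Psg19 and the call below 0 of Ceacam15. Adjusted p in these ran from 0.0504 to 0.193. With the libraries set to the same mean and SD, 10 members were higher and 6 lower, and with quantile normalization 12 and 6, beside 15.5% of all regions higher under each and 15.1% and 15.2% lower, while the median difference of all regions moved to 0.02 and 0.01, against 0.10 as deposited. Read depth is unknown, and 3 libraries a condition limit the precision.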
